A study of Rattus norvegicus with 60 samples.

Results

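The Dlk1-Dio3 domain is an imprinted stretch of rat chromosome 6 that carries a large group of miRNA genes. Most of them form the miR-379/miR-410 cluster; described here are the mature arms of the hairpins that lie outside that cluster. Members were defined by name, as the -5p and -3p arms of miR-770, miR-673, miR-493, miR-337, miR-540, miR-665, miR-431, miR-433, miR-127, miR-434, miR-432, miR-136, miR-341 and miR-370. This list was drawn up with earlier results of these data known. The small RNA count tables list 26 such arms from 13 hairpins, among 879 mature arms and 1318 small RNA features in all. No arm of miR-432 is listed there.

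The libraries come from dorsal root ganglia of Sprague-Dawley rats, the clusters of sensory neuron cell bodies beside the spinal cord. The 10 control libraries are from untreated rats. The 10 CFA libraries are from rats given 0.1 mL of complete Freund's adjuvant (CFA), a suspension that provokes lasting inflammation, under the skin of 1 foot. The sources used here do not give the age or sex of the rats, the time after injection, or the side and level of the ganglia. The controls were untreated rather than injected with vehicle, so the injection itself and the adjuvant cannot be told apart.

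In mammals, genes of this domain are expressed from 1 parental copy. Dlk1, Rtl1 and Dio3 encode proteins and are read from the paternal copy, while Meg3, the Rtl1 antisense transcript and Meg8 (also called Rian) are noncoding RNAs read from the maternal copy, and they are the hosts of the miRNAs. In mouse, the miRNAs of the antisense transcript are fully complementary to the Rtl1 mRNA on the other strand and guide its cutting, and miR-431 has been studied for its effect on axon regrowth in dorsal root ganglion neurons.

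The RefSeq annotation of build GRCr8 places all 13 hairpins on the plus strand of chromosome 6, in a span of 56486 bases. The hairpin of miR-770, from 134298084 to 134298159, lies within Meg3, which runs from 134274056 to 134306249. It is followed by miR-673 (134306500 to 134306582) and miR-493 (134314731 to 134314814). The hairpins of miR-337, miR-540 and miR-665 stand close together, within 631 bases from 134321142 to 134321772. These 6 hairpins are called the Meg3 region below. The hairpins of miR-431, miR-433, miR-127, miR-434 and miR-136 fill 4968 bases from 134326449 to 134331416, all within the annotated extent of Rtl1 (134325231 to 134335780), and are called the Rtl1 antisense group. The hairpin of miR-341 (134347815 to 134347910) and that of miR-370 (134354491 to 134354569) follow, and the latter lies within an annotated noncoding gene, LOC102555254. This pair is called the Meg8 region below. The names of the groups follow the locus as annotated in mouse. Dlk1 lies before all 13 hairpins, from 134192491 to 134199779, and Dio3 after them, from 135107072 to 135108933.

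The mature sequences of the arms on which the results turn are shown so that the seeds can be compared. They come from RefSeq for GRCr8, read 5′ to 3′, and the capitals mark the seed, bases 2 to 8, which leads the pairing with a target.
miR-127-3p: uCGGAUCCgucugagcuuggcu
miR-341-3p: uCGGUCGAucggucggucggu
miR-434-5p: aGCUCGACucaugguuugaacca
miR-434-3p: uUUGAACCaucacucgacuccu
miR-136-3p: cAUCAUCGucucaaaugagucu
miR-337-5p: cGGCGUCAugcaggaguugau
miR-433-3p: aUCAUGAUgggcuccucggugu
miR-433-5p: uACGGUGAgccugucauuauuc
miR-665-3p: aCCAGGAGgcugaggucccuua
Sequences were matched for 21 of the 26 arms, 18 by name and 3 (miR-341-3p, miR-431-5p and miR-665-3p) by position in the hairpin. The other arms are miR-127-5p, miR-136-5p, miR-341-5p, miR-665-5p and miR-431-3p. The 21 arms hold 21 different seeds, so none of them shares a seed with another. Among the 724 mature sequences of the table, 20 of the 21 seeds belong to a single arm. The exception is the seed of miR-370-5p, which is also that of miR-1193-3p from the neighbouring cluster. Both arms of miR-434 (listed as miR-434-1) contain the run UUUGAACCA, 9 bases long, which is the end of the 5p arm and the seed region of the 3p arm.

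The 20 libraries hold between 3360055 and 13097872 counts. Hairpin features, as opposed to mature arms, took 0.938%, 0.414% and 0.598% of the counts in controls 1, 2 and 3 and from 0.0833% to 0.343% in the other 17 libraries. Levels are given as CPM, the count as a rate of the library total, scaled by TMM, a factor per library that corrects for composition. Sensory neuron markers (miR-182, miR-183, miR-96, miR-124, miR-138 and miR-128) were present as the label has it. Of the 6, 5 were counted in all 20 libraries. Their summed level was 27536 to 38378 CPM in controls (median 30091) and 20831 to 39610 CPM in CFA (median 36829). Whether this higher median in CFA had a part in the levels of the arms described here was not tested. CFA 3 and CFA 8 stand apart on markers of other cells. CFA 3 had the highest summed level of 7 blood arms (4602 CPM, against 1032 to 2800 CPM in controls). It was also highest for both endothelial arms (32764 CPM, controls 11645 to 27425) and both glial arms (3139 CPM, controls 1179 to 1687). The CFA median of the glial sum, 1713 CPM, was itself above every control, so a glial sum above the controls was not particular to CFA 3. The blood sum of CFA 8 (3677 CPM) was also above every control. The neuronal sum was lowest in CFA 8, and that of CFA 3 (25602 CPM) was also below every control. CFA 8 held 719 CPM of the hepatocyte marker miR-122-5p, which was at 1.57 to 3.04 CPM in controls. The 4 muscle arms ranged from 958 to 4836 CPM in controls and from 1062 to 3637 CPM in CFA, and the 6 epithelial arms from 59.2 to 575 CPM and from 55.3 to 353 CPM.

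The 26 arms together made up 3.50% ± 0.741 (SD, n = 10) of all mature-arm counts in controls and 3.61% ± 1.10 (SD, n = 10) in CFA. The controls ranged from 2.69% to 4.75% with a median of 3.20%, and the CFA libraries from 1.43% to 4.81% with a median of 3.65%. The groups overlapped. CFA 3 (1.43%) and CFA 8 (2.33%) lay below every control, and CFA 1 and CFA 6 (both 4.81%) lay slightly above the highest control. The same libraries were also the lowest for the miR-379/miR-410 cluster of the same domain, with 0.911% and 1.18%, against 1.35% to 2.24% in controls (1.69% ± 0.279, SD, n = 10). Whether the other cells seen in the markers of CFA 3 and CFA 8 had a part in their low shares was not tested. The cells from which the 26 arms came were not determined. In these bulk libraries, a different mix of cells and a different miRNA level within cells cannot be told apart.

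**Figure D1:**
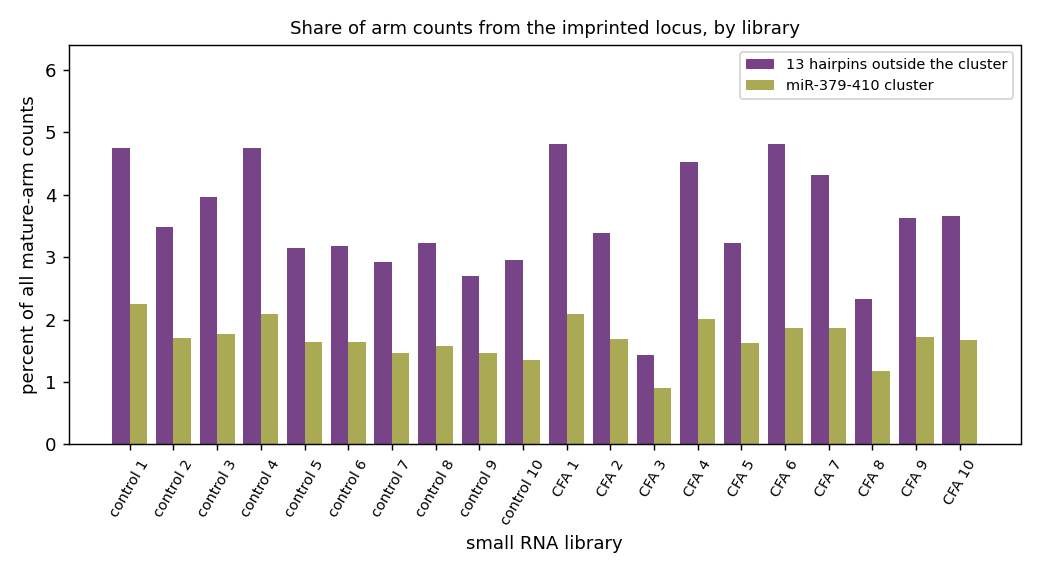
Percent of all mature-arm counts in each of the 20 libraries (bars, from 0) taken by the 26 arms outside the cluster and by the miR-379/miR-410 cluster. The controls hold 2.69% to 4.75% of the former, and CFA 3 and CFA 8 stand lowest for both, at 1.43% and 2.33% for the 26 arms.

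The level of the group was carried by the antisense hairpins, and within them by 1 arm. The 10 arms of the Rtl1 antisense group summed to 28680 ± 4724 CPM in controls and 32514 ± 8934 CPM in CFA. The 12 arms of the Meg3 region summed to 1812 ± 280 and 2091 ± 497 CPM. The 4 arms of the Meg8 region summed to 2656 ± 452 and 2487 ± 661 CPM (all SD, n = 10). The differences between group means were smaller than the SD of the CFA libraries in all 3 regions. That SD describes single libraries, not the uncertainty of a difference between means, and the sums were not tested.

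miR-127-3p, which in mouse guides the cutting of the Rtl1 mRNA, was ranked 14 among all arms by mean level in controls. It alone held 69.1% ± 1.84 of the counts of the 26 arms in controls and 69.8% ± 4.24 in CFA (SD, n = 10), from 59.3% in CFA 3 to 73.7%. Its control mean was 10.3-fold that of the next arm, miR-341-3p, ranked 59. These are count levels of arms of nearly equal length, 17 to 24 bases, so no length scaling was applied; adapters are not joined to every arm with equal efficiency, and the order is one of counts.

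Below miR-127-3p most neighbours in level had overlapping ranges. In controls, 13 of the 26 arms reached 100 CPM and 9 stayed under 20 CPM. Of the 25 pairs of neighbours in the order of levels, 3 had control ranges that did not overlap: miR-127-3p over miR-341-3p, miR-493-3p (375 ± 63.9 CPM) over miR-136-5p (199 ± 25.4 CPM), and miR-136-5p over miR-770-3p (121 ± 27.0 CPM). Compared within each library, 6 further pairs had the same order in all 10 controls although their ranges overlapped: miR-434-3p over miR-136-3p, miR-136-3p over miR-127-5p, miR-770-3p over miR-431-5p, miR-673-3p over miR-433-5p, miR-673-5p over miR-341-5p and miR-665-5p over miR-431-3p. In the other 16 pairs at least 1 control had the reverse order. In the Meg3 region the leading arms were miR-337-5p (624 ± 114 CPM), miR-493-5p (510 ± 114 CPM) and miR-493-3p. In the Meg8 region they were miR-341-3p (2223 ± 416 CPM) and miR-370-3p (419 ± 103 CPM).

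At the low end, the arms of miR-673, the 5p arms of miR-770, miR-540, miR-433, miR-370 and miR-341, both arms of miR-665 and miR-337-3p lay between 2.53 and 38.3 CPM on average in controls. miR-431-3p was near absent, with 0 to 5 counts in each control and 0 to 2 in each CFA library, while its partner miR-431-5p had a mean of 87.4 ± 14.9 CPM in controls (SD, n = 10). miR-540-3p lay close to it, with 83.2 ± 24.7 CPM.

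**Figure D2:**
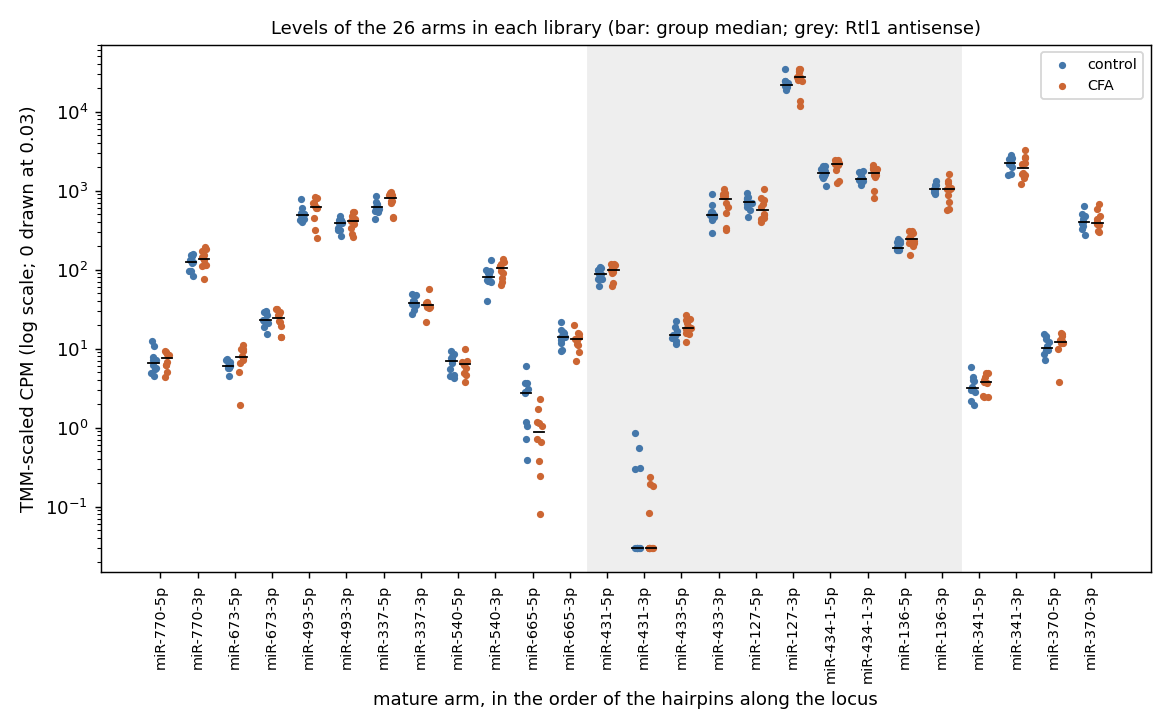
TMM-scaled CPM (log scale, libraries at 0 drawn at 0.03) of each of the 26 arms in the 10 control and 10 CFA libraries, one point per library and a bar at the group median, in locus order. miR-127-3p lies 10.3-fold above the next arm in controls, the groups overlap for every arm, and miR-431-3p is at the floor.

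The hairpin of miR-431 behaved unlike the other 12. Its hairpin feature held up to 2057 counts in a library, against up to 1133 for its 5p arm, and it was the 1 of 13 hairpins whose own feature exceeded the sum of its arms. The ratio of hairpin to 5p counts was 2.16 ± 0.272 in controls and 1.97 ± 0.365 in CFA (SD, n = 10). It ranged from 1.46 to 2.57 and was above 1 in all 20 libraries. The hairpin is printed because many of its counts are listed under neither arm, with the 5p arm, bases 20 to 40 of 114, in capitals.
mir-431 hairpin: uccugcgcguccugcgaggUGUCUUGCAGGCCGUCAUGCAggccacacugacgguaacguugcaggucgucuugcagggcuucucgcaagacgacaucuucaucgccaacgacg
The sources used here do not say how reads were divided between a hairpin and its arms, and the count tables do not show where along the hairpin its counts lie. The hairpin feature itself had a log2 fold change of 0.038 (SE 0.16, quasi-likelihood test of edgeR, Benjamini-Hochberg adjusted p = 0.884).

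Each hairpin is cut into a 5p and a 3p arm, of which usually 1 is kept. The balance was measured as the log2 ratio of 5p to 3p counts within a library, which does not depend on the scaling between libraries. It could be measured for 12 of the 13 hairpins, all but miR-431. In controls the 3p arm was the more abundant in 9 of the 12 and the 5p arm in 3 (miR-337, miR-434 and miR-493). Over all 216 hairpins measured, 42.6% favoured the 3p arm. The imbalance was over 4-fold in 9 of the 12, beside 69.4% of all hairpins.

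The most uneven hairpin was miR-341, whose 3p arm had 651-fold the counts of the 5p arm in controls, with log2 ratios of -9.94 to -8.65. miR-370 and miR-433 were also strongly 3p, by 37.7-fold and 32.8-fold, and miR-127 by 32.4-fold. miR-337 was the 1 strongly 5p hairpin, by 16.3-fold.

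The arms of miR-434 and miR-493 were close to even. For miR-434 the mean log2 ratio in controls was 0.19 ± 0.337 (SD, n = 10), and the 5p arm was above the 3p arm in 15 of 20 libraries. Its ratio ran from -0.62 in control 5 to 1.57 in CFA 3, so the more abundant arm depended on the library. For miR-493 the mean was 0.43 ± 0.243, with the 5p arm above in 19 of 20 libraries.

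No hairpin of the 216 passed the test for a different balance in CFA (limma, adjusted p under 0.05: 0 of 216, or 0%), and 35 of them (16.2%) had an unadjusted p under 0.05. Among the 12 hairpins, 2 had such a p, miR-665 and miR-127.

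For miR-127, whose 3p arm dominates, the log2 ratio was -5.53 to -4.45 in controls (median -5.01) and -5.93 to -4.60 in CFA (median -5.41). The difference was -0.38 (SE 0.17, 95% interval -0.74 to -0.019, limma adjusted p = 0.302). In 4 CFA libraries it was below every control, and the other 6 lay within the control range. For miR-136 the log2 ratio was -2.73 to -2.08 in controls (median -2.44) and -3.37 to -0.94 in CFA (median -2.03), a difference of 0.41 (SE 0.22, interval -0.058 to 0.87, limma adjusted p = 0.373). The CFA libraries lay on both sides of the controls: 5 were above every control and 1, CFA 6, was below every control. Without CFA 3 and CFA 8 the difference for miR-136 was 0.21 and without CFA 8, 9 and 10 it was 0.24.

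For miR-665 the ratio was -4.38 to -1.78 in controls (median -2.46) and -6.85 to -2.40 in CFA (median -3.71), with a difference of -1.24 (SE 0.53, interval -2.35 to -0.13, limma adjusted p = 0.300). The lowest values, -6.85 and -6.10, were those of CFA 9 and CFA 10, the deepest libraries, where miR-665-5p had 1 and 3 counts. This arm had 2 to 35 counts in controls and 1 to 16 in CFA, so the ratio rests on few counts. Without CFA 8, 9 and 10 the difference was -0.73.

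The hairpins with the largest imbalance were strongly 3p in both groups. The difference in log2 ratio was 0.28 for miR-341 (SE 0.18, interval -0.10 to 0.66, limma adjusted p = 0.464). It was 0.052 for miR-370 (SE 0.20, interval -0.37 to 0.47, adjusted p = 0.881) and -0.086 for miR-433 (SE 0.20, interval -0.51 to 0.34, adjusted p = 0.839). For miR-370 the sign turned where controls 1, 2 and 3 were left out, and for both of these the values sit close to 0. The mean log2 ratios of the 3 in CFA were -9.06, -5.19 and -5.12, against -9.35, -5.24 and -5.04 in controls.

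**Figure D3:**
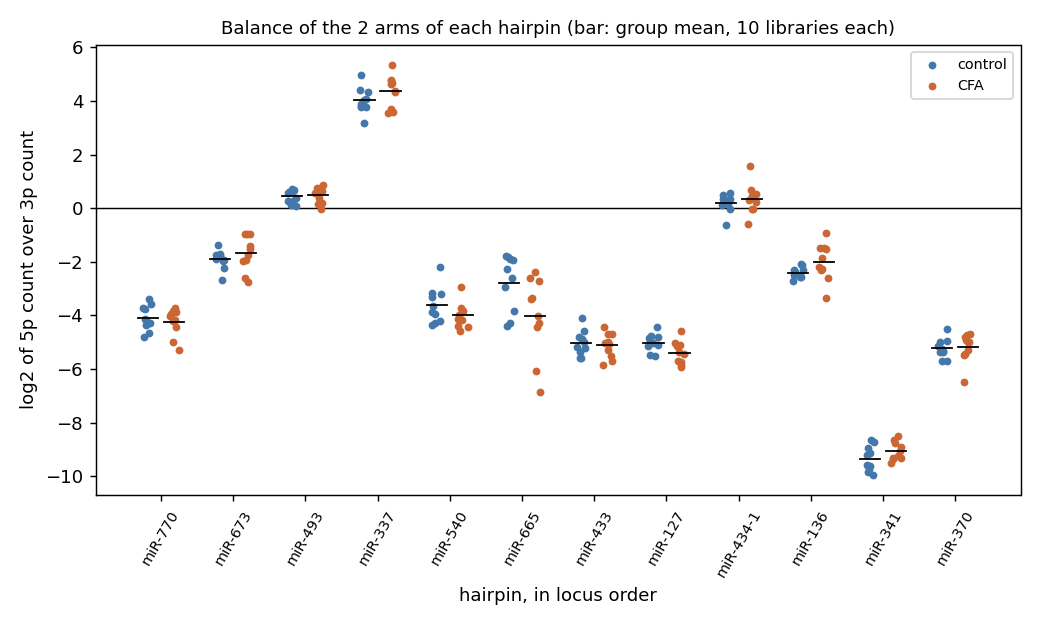
Log2 ratio of 5p to 3p counts for the 12 hairpins in each of 10 control and 10 CFA libraries, with bars at the group means. Values below 0 mean more 3p: miR-341 sits near -9 in both groups, miR-337 lies above 3 in every library, and the arms of miR-434 and miR-493 lie around 0.

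CFA against control was tested in all 692 features with enough counts, hairpins and mature arms together. By the quasi-likelihood test of edgeR, with p adjusted by Benjamini-Hochberg, none was called at 0.05 (0% of 692), and the smallest adjusted p was 0.0720. An unadjusted p under 0.05 was found for 23.6% of the 692. So 0 of the 24 arms tested here were called. miR-665-5p and miR-431-3p had too few counts for this test. Such an unadjusted p was found for 2 of the 24 arms, miR-136-5p and miR-433-5p, beside 16.3% of all arms tested. By DESeq2 on all features, 9.91% of the 1241 with an adjusted p were called. That share takes in hairpin features. Of the 879 mature arms listed, 40 were called, and of the 26 arms described here 1 was, miR-665-5p.

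The log2 fold changes of the 24 arms were small and of both signs. They ran from -0.21 for miR-127-5p to 0.43 for miR-433-3p, with a median of 0.13, and 18 of 24 were above 0 with TMM factors, 10 with upper-quartile factors. Over all arms tested, 66.4% were above 0 and the median was 0.11 with TMM factors. Upper-quartile factors moved the median of all arms from 0.11 to -0.058 and that of the 24 to -0.021. Relative to the median of all arms, 14 of the 24 lay above it with TMM factors and 15 with upper-quartile factors. The miR-379/miR-410 cluster, by the same fit, had a median of 0.13 with 42 of 58 tested arms above 0 (TMM factors).

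The intervals of the fit with TMM factors bound what could have been missed under that scaling only. The 95% interval of the fold change lay within 1.5-fold of no change for 19 of the 24 arms (79.2%) and within 2-fold for all 24, beside 52.3% and 86.3% of all arms tested. The intervals do not take in the choice of scaling, which moved the values themselves. For miR-433-3p the log2 fold change was 0.43 with TMM factors, 0.27 with upper-quartile factors and 0.62 with no filter on low counts. Of the 11 hairpins with both arms tested, 6 had the same sign in both with TMM factors, 3 with upper-quartile factors and 10 with no filter on low counts, beside 58.5%, 51.2% and 80.2% of all 207 hairpins with both arms tested.

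**Figure D4:**
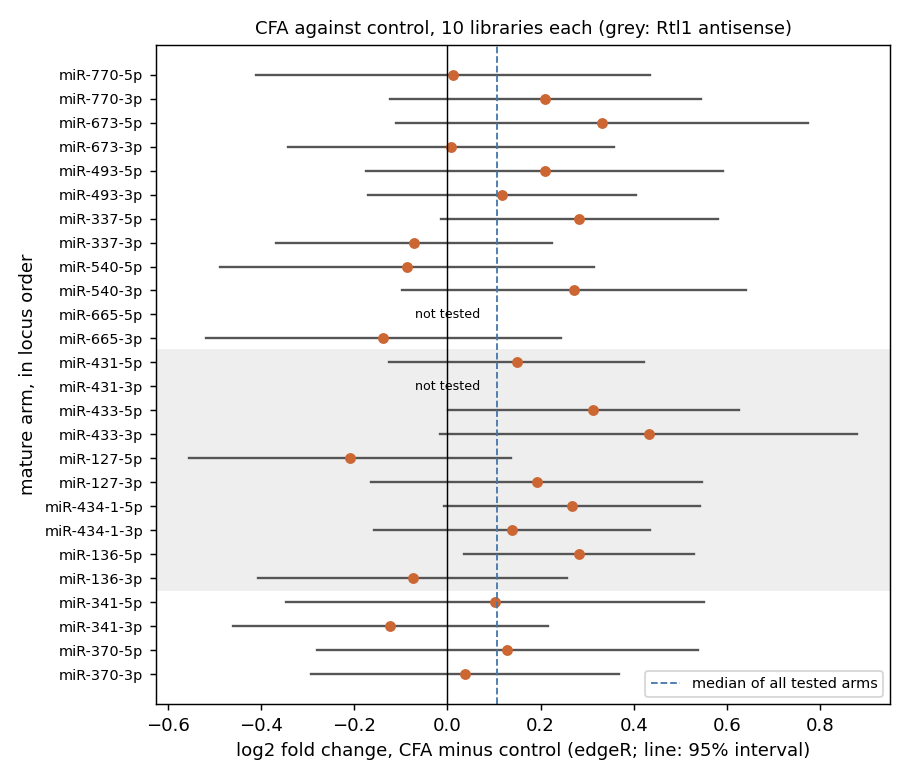
Log2 fold change (CFA minus control, 10 libraries each, edgeR with TMM factors) of the 24 tested arms in locus order, with 95% intervals; the dashed line is the median of all tested arms, 0.11. The values run from -0.21 to 0.43, and none passed the test at an adjusted p under 0.05.

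In the Rtl1 antisense group, 7 of 9 tested arms had values above 0 (5 with upper-quartile factors), with a median of 0.19, and 0 were called. miR-127-3p ranged from 18943 CPM over a median of 21550 to 34183 in controls, and from 11883 over 27218 to 34922 in CFA. Its log2 fold change was 0.19 (SE 0.17, interval -0.16 to 0.55, edgeR adjusted p = 0.496). The CFA libraries fell into a low pair and a high remainder: CFA 3 (11883 CPM) and CFA 8 (13545 CPM) were below every control, and the other 8 lay at 24108 to 34922 CPM. Among the controls, 9 lay at 18943 to 24150 CPM and control 4 at 34183 CPM, so that 1 CFA library was above every control. Without CFA 3 and CFA 8, left out after their values were seen, the log2 fold change was 0.36 (edgeR adjusted p = 0.0869).

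Its partner arm, miR-127-5p, ranged from 466 CPM over a median of 720 to 945 in controls and from 396 over 562 to 1035 in CFA. Its log2 fold change was -0.21 (SE 0.17, interval -0.55 to 0.14, edgeR adjusted p = 0.443), and 1 CFA library was above and 3 were below every control. The arms of this hairpin thus had values of opposite sign, and their ratio is the one given above for miR-127.

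miR-136 also had arms of opposite sign. miR-136-5p, with the smallest p of the 24, ranged from 175 CPM over a median of 187 to 242 in controls and from 155 over 242 to 308 in CFA. Its log2 fold change was 0.28 (SE 0.12, interval 0.036 to 0.53, unadjusted p = 0.0268, edgeR adjusted p = 0.166). In 5 CFA libraries it was above every control, and in CFA 6 it was below every control. The more abundant arm, miR-136-3p, ranged from 904 over 1037 to 1311 CPM in controls and from 560 over 1051 to 1600 CPM in CFA, with a log2 fold change of -0.075 (SE 0.16, interval -0.41 to 0.26, edgeR adjusted p = 0.785). Here the medians were alike and the CFA libraries were the more scattered, with 2 above and 4 below every control. The sign of miR-136-3p turned without CFA 3 and CFA 8 (0.068), without CFA 8, 9 and 10 (0.042) and with no filter on low counts (0.10).

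By the number of CFA libraries above every control, miR-434-5p came closest to a separation of the groups. It ranged from 1135 CPM over a median of 1668 to 2059 in controls and from 1243 over 2149 to 2418 in CFA, and its log2 fold change was 0.27 (SE 0.13, interval -0.0070 to 0.54, edgeR adjusted p = 0.221). In 7 of 10 CFA libraries it was above every control, while CFA 6 (1243 CPM) and CFA 8 (1307 CPM) were below the control median. No other member tested had more CFA libraries above every control, and none had groups that did not overlap. Above the control median, miR-434-5p had 8 CFA libraries, while miR-136-5p and miR-433-5p each had 9. Such counts were not made over all arms tested, so they describe these arms only. miR-434-3p ranged from 1170 over 1391 to 1756 CPM in controls and from 817 over 1655 to 2134 CPM in CFA, a log2 fold change of 0.14 (SE 0.14, interval -0.16 to 0.43, edgeR adjusted p = 0.556) that was -0.027 with upper-quartile factors. CFA 3 had the highest 5p level (2418 CPM) and the lowest 3p level (817 CPM) of this hairpin among the 20 libraries.

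CFA 3 and CFA 6 stood at opposite ends for both hairpins. The 5p share relative to 3p was highest of all 20 libraries in CFA 3 for miR-136 and for miR-434, while CFA 6 had the lowest ratio for miR-136 and the second lowest for miR-434. In CFA 3, miR-136-5p was at 304 CPM and miR-136-3p at 585 CPM. In CFA 6, they were at 155 and 1600 CPM, and miR-434-5p and miR-434-3p at 1243 and 1880 CPM.

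miR-433-3p had the largest log2 fold change of the 24 arms. It ranged from 288 CPM over a median of 490 to 906 in controls and from 320 over 778 to 1037 in CFA, a log2 fold change of 0.43 (SE 0.22, interval -0.016 to 0.88, edgeR adjusted p = 0.224). The groups overlapped broadly: 2 CFA libraries were above every control and none was below. CFA 3 and CFA 8 were again low, at 320 and 333 CPM. Without them, left out after their values were seen, the log2 fold change was 0.61 (edgeR adjusted p = 0.0830). Leaving out low CFA libraries raises this value, so it is a description only. miR-433-5p, at a far lower level, ranged from 11.5 over 14.8 to 22.1 CPM in controls and from 12.3 over 18.4 to 26.3 CPM in CFA, with a log2 fold change of 0.31 (SE 0.15, interval 0.00072 to 0.63, unadjusted p = 0.0495, edgeR adjusted p = 0.211). In 3 CFA libraries it was above every control. miR-431-5p, of the miRNA studied for axon regrowth in mouse, had means of 87.4 ± 14.9 CPM in controls and 96.9 ± 19.7 CPM in CFA (SD, n = 10), and a log2 fold change of 0.15 (edgeR adjusted p = 0.493).

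In the Meg3 region, 8 of 11 tested arms had values above 0 (5 with upper-quartile factors), with a median of 0.12, and 0 were called. miR-337-5p had the smallest p of them. It ranged from 433.6 CPM over a median of 613 to 862 in controls and from 455 over 798 to 957 in CFA, a log2 fold change of 0.28 (SE 0.14, interval -0.015 to 0.58, edgeR adjusted p = 0.229). In 4 CFA libraries it was above every control and in none below, and the low CFA libraries were once more CFA 3 (455 CPM) and CFA 8 (456 CPM).

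For the other tested arms of this region, the log2 fold changes were 0.21 for miR-493-5p, 0.12 for miR-493-3p, 0.21 for miR-770-3p, 0.013 for miR-770-5p, 0.27 for miR-540-3p and -0.087 for miR-540-5p. For miR-673-5p the value was 0.33, with 6 CFA libraries above every control (4.50 to 7.45 CPM) and CFA 3 below them at 1.92 CPM. It was 0.0078 for miR-673-3p, -0.071 for miR-337-3p and -0.14 for miR-665-3p. Their edgeR adjusted p-values ran from 0.327 for miR-673-5p to 0.974 for miR-673-3p.

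miR-665-5p was the arm called by DESeq2. It had 2 to 35 counts in controls and 1 to 16 in CFA, or 0.39 CPM over a median of 2.78 to 6.04 in controls and 0.081 over 0.89 to 2.31 in CFA. The groups overlapped, and every CFA library was below the control median. The DESeq2 log2 fold change was -1.38 (adjusted p = 0.0438), while edgeR with no filter on low counts gave -1.23 (adjusted p = 0.0892).

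The call lay close to the threshold. Controls 1, 2 and 3, which had the largest share of hairpin counts, held 6.04, 2.81 and 3.67 CPM of it. Controls 8, 5 and 10, with hairpin shares of 0.197%, 0.259% and 0.133%, held 3.67, 3.04 and 2.75 CPM. Controls 4, 6, 7 and 9 held 0.72, 1.05, 1.20 and 0.39 CPM. Without controls 1, 2 and 3 the DESeq2 log2 fold change was -0.96 (adjusted p = 0.387). Without CFA 8, 9 and 10 it was -1.18 (adjusted p = 0.168). Without CFA 3 and CFA 8, left out after their values were seen, it was -1.57 (adjusted p = 0.0323). Leaving out 1 library at a time, the log2 fold change by DESeq2 ran from -1.64 to -1.18, the adjusted p from 0.0194 to 0.119, and the call held in 6 of 20 fits. The part of the hairpin counts in this difference was not tested. The opposite arm, miR-665-3p, averaged 14.3 ± 3.74 CPM across the controls and 12.9 ± 3.61 CPM across the CFA libraries (SD, n = 10).

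In the Meg8 region, 3 of 4 tested arms had values above 0 (0 with upper-quartile factors), with a median of 0.070, and 0 were called. miR-341-3p, the second arm in level, ranged from 1560 CPM over a median of 2264 to 2836 in controls and from 1198 over 1919 to 3213 in CFA. Its log2 fold change was -0.12 (SE 0.16, interval -0.46 to 0.22, edgeR adjusted p = 0.649). The CFA libraries spread beyond the controls on both sides, with 1 above and 2 below all of them. The sign turned without CFA 8, 9 and 10 (0.044) and with no filter on low counts (0.049). The other values were 0.10 for miR-341-5p, 0.037 for miR-370-3p and 0.13 for miR-370-5p, with edgeR adjusted p of 0.783, 0.891 and 0.692.

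The spread between libraries was the larger in CFA for most of these arms. The SD of log2 CPM was larger in CFA than in controls for 20 of the 24 tested arms (83.3%, beside 64.2% of all arms tested), with medians of 0.287 in controls and 0.400 in CFA. Over all arms tested the medians were 0.342 and 0.426. Of the 24 arms, 14 (58.3%) had their lowest level of all 20 libraries in CFA 3 or CFA 8, beside 26.3% of all arms tested. The highest level lay in a CFA library for 21 of the 24 (87.5%), beside 67.2% of all arms tested. Whether these shares differ was not tested. Without CFA 3 and CFA 8 the median log2 fold change of the 24 arms was 0.26, beside 0.10 over all arms, 20 of the 24 were above 0, and edgeR again called 0 features. These libraries were left out after their levels of the 26 arms were known, and their low values of the same arms enter the choice, so the larger median is a description only.

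Hairpins on the opposite strand overlap 2 of these loci, miR-3543 over miR-434 and miR-3544 over miR-337. The hairpin feature of miR-3543 held 2 to 106 counts per library and its 5p arm 0 to 108, and that of miR-3544 held 14 to 255 with at most 6 in either arm. The sources used here do not say whether counting used the strand, so reads of miR-434 and miR-337 could be shared with these features, and their values are uncertain to that extent.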

How the data were processed

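The deposited small RNA files hold raw counts per miRNA hairpin and mature arm, per the file headers. STAR 2.7.0, cutadapt 2.1.0, FastQC 0.11.8, Trim Galore 0.6.4, Bismark 0.22.0, DESeq2 1.29.0 and the build rn4 appear in the submitters' processing notes, with no role for any of them in the small RNA counts. How reads were counted, and whether by strand, was not given in the sources used here, and arms that share reads with near copies are uncertain.

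CFA was compared with control by edgeR 4.0.16 in R 4.3.3, using TMM factors, filterByExpr and a robust quasi-likelihood fit on all features, with p adjusted by Benjamini-Hochberg at 0.05. CPM values carry the TMM factors, and a prior count of 2 was used for log2 CPM. Arm ratios, log2 of 5p over 3p counts with a pseudocount of 0.5, were tested with limma 3.58.1 where each arm had a mean of at least 10 counts. DESeq2 1.42.0 was an alternative. The scripts were tested on simulated data.

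Values per group are given for the 6 arms with the highest mean CPM, the 5 with the smallest p among arms with a mean of at least 10 CPM, and for ratios the 3 with the smallest p and the 3 with the largest imbalance. Other arms described by library were singled out after their values were seen. The members and lists were chosen with earlier results of these data known. The labels do not say which rats stand behind which library numbers, so p-values measure the spread between these libraries. No 2 libraries of a group agreed within sampling noise (the closest, CFA 9 and CFA 10, had a chi-square of 48.1 per degree of freedom). A planned comparison of the Dlk1, Meg3, Rtl1 and Dio3 mRNAs was not made, because no table used here pairs those gene identifiers with symbols, and the mRNA and bisulfite files were not used here.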

Additional observations from a re-analysis of the deposited data

Results flagged for a closer look

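In each group of 10 libraries, the highest or lowest value was set against the rest with Dixon's ratio at its 95% critical value, for 78 groups in all: each of the 26 arms, the 12 arm ratios and the summed share. Chance alone marks about 1 in 20 groups, and 8 were marked. No explanation was tested for any of them.

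Control 4 stood above the other controls for miR-127-3p, at 34200 CPM against 18943 to 24150, and for miR-493-5p, at 788 CPM against 398 to 600. CFA 6 stood above the other CFA libraries for miR-337-3p, at 56.5 CPM against 21.4 to 38.8, and for miR-540-5p, at 9.94 CPM against 3.83 to 7.04. Its log2 ratio of 5p to 3p counts of miR-540 was -2.95, against -4.59 to -3.74 in the others. CFA 3 had 3.83 CPM of miR-370-5p against 9.87 to 15.6, and a log2 ratio for miR-370 of -6.50 against -5.47 to -4.70. Control 5 had a log2 ratio for miR-434 of -0.618, against -0.04 to 0.58 in the other controls.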

How the results depend on the processing

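The count of called features was 0 and became 123 with DESeq2, 32 with DESeq2 on the features that edgeR tested (added after seeing the data), 4 with upper-quartile factors, 12 with the replicate number as a block and 0 to 7 when 1 library was left out (7 without control 10 or CFA 8, 6 without control 9). Called members were 0, except 1 with DESeq2. Replicate numbers were not taken as pairs: deviations of same-numbered libraries correlated from -0.416 to 0.605 (median 0.0806), 5 of 10 pairs over 0.1 and 2 best with their own number, and under this block no member was called. Arm ratios had 0 calls in every alternative run. The summed level of the 26 arms in controls, 33148 CPM, was 34902 CPM of the total count and 35026 of the arm total.

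Signs turned for small values. With upper-quartile factors the log2 fold change was -0.051 for miR-341-5p, -0.11 for miR-370-3p, -0.015 for miR-370-5p, -0.0025 for miR-431-5p, -0.027 for miR-434-1-3p, -0.032 for miR-493-3p, -0.14 for miR-673-3p and -0.17 for miR-770-5p, and the medians were -0.021 (members) and -0.058 (all arms). With no filter it was 0.10 for miR-136-3p, 0.11 for miR-337-3p, 0.049 for miR-341-3p, 0.097 for miR-540-5p and 0.064 for miR-665-3p, with medians of 0.31 and 0.28. For miR-673-3p it was -0.023 with RLE factors, -0.097 with at least 10 CPM, -0.070 on arms only, -0.016 under the block, -0.021 with DESeq2 on edgeR's features and -0.031 without controls 1, 2 and 3. For miR-770-5p it was -0.017 with RLE factors, -0.080 on arms only and -0.029 without CFA 8, 9 and 10. For miR-370-3p it was -0.082 with at least 10 CPM and -0.048 on arms only. Without controls 1, 2 and 3, rno-miR-337-3p had 0.0033 and the log2 ratios of miR-370 and miR-493 differed by -0.096 and -0.032. Without CFA 8, 9 and 10 the values were 0.042 for miR-136-3p, 0.044 for miR-341-3p and 0.016 for miR-540-5p, and -0.042 and -0.082 for the ratios of miR-370 and miR-673. Without CFA 3 and 8 they were 0.068 for miR-136-3p and 0.018 for miR-540-5p. With 1 library left out, the ranges were -0.061 to 0.078 for miR-673-3p, -0.045 to 0.14 for miR-770-5p, -0.069 to 0.096 for miR-370-3p, -0.19 to 0.0023 for miR-136-3p, and for ratios -0.0019 to 0.20 (miR-370) and -0.16 to 0.018 (miR-433). The cause of these turns was not tested. The 5 arms with the smallest p kept their sign in every alternative. They were picked by p in these same libraries, so this is a description only. With upper-quartile factors their values were smaller: 0.11 for miR-136-5p, 0.14 for miR-433-5p, 0.11 for miR-434-5p, 0.27 for miR-433-3p and 0.12 for miR-337-5p. The alternatives for mRNA were not run.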
